A study of Mus musculus with 7 samples.

Results

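The 9 genes described here act in triglyceride synthesis and fat cell formation, and their transcripts were followed in mouse skin with and without Tuft1: Gpam, Agpat2, Lpin1, Dgat1, Dgat2, Pck1, Slc2a4, Pparg and Cebpa. They were picked by symbol, with the knockout to wild-type comparison of the same libraries already known, and are 9 of the 56691 genes in the deposited table and 9 of the 12888 that had enough counts to be tested. Their differences between genotypes are therefore a description, and whether a test over all genes called them is stated once, beside the share of all genes called, with nothing read from it. The study set skin of healthy appearance from 3 Tuft1 knockout (KO) mice (mice 2, 3 and 4) against healthy skin from 4 wild-type (WT) mice (mice 5, 6, 7 and 8), with 1 library per mouse. The KO allele, the strain, the age and the body site are not stated in the labels, nor is any agent that both groups received. Tuft1 encodes tuftelin 1, which the study describes as a desmosome-associated protein.

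Libraries were made with a kit that reads 1 stretch near the 3′ end of each polyadenylated transcript, so counts do not grow with transcript length and levels of different genes can be set side by side. Levels are CPM, counts scaled to a common library size with TMM factors, which adjust for the makeup of each library. The 7 libraries held 7009237 to 9256459 counts, of which 6251 to 19392 belonged to the 9 genes. Tuft1 itself stood at 17.2 to 29.1 CPM in KO and at 55.6 to 114 CPM in WT skin, and whether its tags lie in the deleted part is not stated. Knockout mouse 2 stood apart in hair genes: 45 of 58 keratin-associated protein genes had counts there, against 2 to 4 in each other library. The fold changes of Dgat2, Pparg and Cebpa without this mouse are given beside their values.

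Triglyceride, the storage form of fat, is built on a backbone of glycerol 3-phosphate. Gpam adds the first fatty acid, Agpat2 adds the next to give phosphatidic acid, and Lpin1 removes the phosphate to give diacylglycerol. Dgat1 and Dgat2, unrelated enzymes with the same reaction, add the last fatty acid. In fat cells Pck1 makes backbone from pyruvate, and Slc2a4, the insulin-responsive glucose transporter GLUT4, lets glucose in. Pparg and Cebpa are the transcription factors that drive fat cell formation and raise each other's expression. Skin holds fat cells in the dermal white adipose layer under the dermis. Sebaceous glands, which also make triglyceride and express Pparg and Dgat2, and skeletal muscle of the panniculus, which expresses Slc2a4 and Lpin1, lie in the same piece of tissue.

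Promoter windows from RefSeq (GRCm38.p6, 250 bases before to 50 after a transcript start) were at hand for 6 of the 9 genes, in 9 windows. Dgat1, Dgat2 and Slc2a4 had none. The 2 transcription factors are shown because their levels ran side by side in the 7 libraries, and Pck1 because it is a known target of both whose groups overlapped. Each is written 5′ to 3′ on the strand of the gene, with matches to the searched letters in capitals. The Pparg window is the most downstream of its 3 starts (chr6:115421816-115422115, plus strand), which precedes the fat-enriched PPARγ2 transcript. The Cebpa window is chr7:35119043-35119342 (plus strand), and that of Pck1 is chr2:173152823-173153122 (plus strand).
Pparg: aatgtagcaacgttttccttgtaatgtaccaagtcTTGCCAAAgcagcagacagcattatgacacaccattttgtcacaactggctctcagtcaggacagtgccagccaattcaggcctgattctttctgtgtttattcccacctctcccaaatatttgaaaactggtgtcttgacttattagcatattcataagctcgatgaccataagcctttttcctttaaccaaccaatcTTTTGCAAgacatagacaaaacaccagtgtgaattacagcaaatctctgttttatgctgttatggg
Cebpa: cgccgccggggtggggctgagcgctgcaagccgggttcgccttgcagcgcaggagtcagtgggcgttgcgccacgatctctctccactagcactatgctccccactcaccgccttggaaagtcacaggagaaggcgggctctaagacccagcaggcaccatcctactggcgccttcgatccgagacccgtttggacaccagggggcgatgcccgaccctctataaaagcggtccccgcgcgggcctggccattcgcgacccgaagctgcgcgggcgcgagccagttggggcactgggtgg
Pck1: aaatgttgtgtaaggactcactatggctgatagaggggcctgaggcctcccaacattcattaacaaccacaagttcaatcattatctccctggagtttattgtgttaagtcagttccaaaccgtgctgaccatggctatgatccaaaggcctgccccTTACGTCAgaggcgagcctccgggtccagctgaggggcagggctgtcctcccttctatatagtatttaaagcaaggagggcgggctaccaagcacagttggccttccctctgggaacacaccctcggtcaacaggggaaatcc

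All 4 motifs were searched on both strands. The C/EBP letters TTGCNNAA matched at 2 places in the Pparg window, as TTGCCAAA and, on the other strand, TTTTGCAA, which begin 215 and 16 bases before the start. They matched once in 1 of the 2 Gpam windows, 8 bases after the start. These letters occurred in 10.8% of 32851 windows of the same length. The cyclic AMP response letters TGACGTNA matched once in the Pck1 window, 93 bases before the start, and occurred in 2.93% of windows. The nuclear receptor half-site AGGTCA occurred in 16.3% of windows and was found in none of the 3 sequences above, but once each in the other 2 Pparg windows, in the Lpin1 window and in the other Gpam window. The PPAR element DR1, 2 copies of that half-site with 1 base between them, occurred in 0.0396% of windows and in none of those 9. The Cebpa window and the Agpat2 window matched none of the 4. A match describes letters only, and 3′ tags do not tell which start was used.

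The 9 genes split. Dgat2, Pparg and Cebpa were lower in each of the 3 KO mice than in any of the 4 WT mice, at 35.7%, 44.3% and 64.6% of the WT mean. The other 6 overlapped between the genotypes, with means from 65.2% of WT for Agpat2 to 129% for Gpam. By edgeR's quasi-likelihood test 0 of the 9 were called at an adjusted p below 0.05, where 0.0233% of all genes tested were called. Dgat2, Pparg and Cebpa had an unadjusted p under 0.05, which 4.31% of all genes had in either direction and 2.59% in this one. Knockout mice lay wholly below WT mice for 3.45% of all genes tested. Nothing is read from these counts, since the genes were chosen with this comparison known. Dgat2 was called in 3 of 12 other settings: with DESeq2 (0.954% of genes called, 0.613% lower in KO), with limma-voom (0.171%, 0.116% lower) and without a filter on low counts (0.397%, 0.22% lower).

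**Figure D1:**
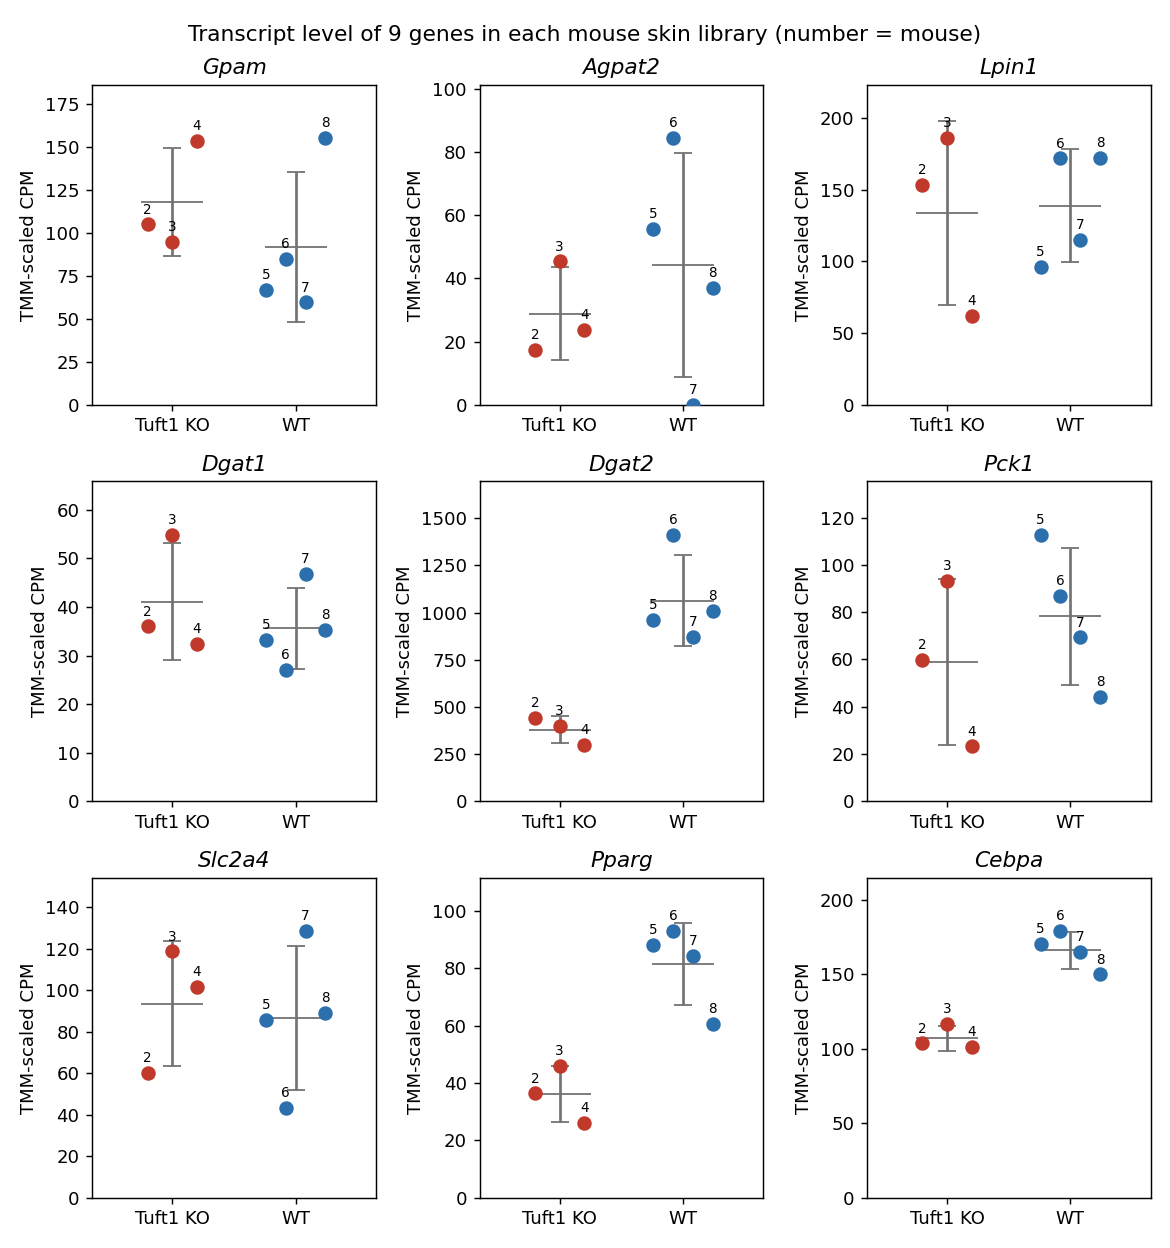
Level of each of the 9 genes in TMM-scaled CPM (vertical axis, from 0) in Tuft1 KO (red) and WT (blue) skin. Points are libraries with the mouse number, and bars are the mean ± SD (n = 3 and 4). Dgat2, Pparg and Cebpa show no overlap between the groups, the other 6 genes do, and Agpat2 has a library at 0.

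Dgat2, the last step of triglyceride synthesis in fat cells, was the most abundant of the 9. It stood at 440.3, 401 and 298 CPM in KO mice 2, 3 and 4, against 963, 1413, 869 and 1009 CPM in WT mice 5, 6, 7 and 8. Every KO mouse lay far below the lowest WT mouse, and the groups did not overlap. The fitted log2 fold change was -1.49 (SE 0.24), and it was -1.61 without KO mouse 2. Dgat2 is at 98802865 to 98831926 on chromosome 7, minus strand (mm39, as are all gene positions here). Its exons overlap those of no other gene.

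Dgat1, which makes triglyceride in many tissues, did not share this pattern. It was at 35.98, 54.9 and 32.4 CPM in KO mice 2, 3 and 4, and at 33.3, 27.0, 46.9 and 35.3 CPM in WT mice 5, 6, 7 and 8. All 7 libraries lay within 27.0 to 54.9 CPM, with a log2 fold change of 0.21 (SE 0.45, chromosome 15, 76386215 to 76396153, minus strand), which turned to -0.06 without KO mouse 3. Within a library, Dgat2 therefore outnumbered Dgat1 12.2-, 7.30- and 9.22-fold in KO mice 2, 3 and 4, against 28.9-, 52.3-, 18.5- and 28.6-fold in WT mice 5, 6, 7 and 8. This ratio does not depend on how the libraries were scaled, and it averaged 9.59 ± 2.49 in KO (SD, n = 3) and 32.1 ± 14.3 in WT skin (SD, n = 4). The KO ratios all lay below the WT ones. No share over all pairs of genes was computed, and the Dgat2 difference was known beforehand, so nothing is read from this. The ratio of Dgat2 to Pparg overlapped, at 8.72 to 12.1 in KO and 10.3 to 16.6 in WT skin.

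Pparg, the receptor that fat cells need to form and to persist, stood at 36.4, 45.9 and 26.2 CPM in KO mice 2, 3 and 4. It stood at 88.1, 93.0, 84.4 and 60.6 CPM in WT mice 5, 6, 7 and 8. Wild-type mouse 8 was the nearest to the KO range, and still above it. The log2 fold change was -1.17 (SE 0.35, chromosome 6, 115337912 to 115467360, plus strand), and -1.18 without KO mouse 2.

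Cebpa, the partner factor, was the steadiest of the 9 within each genotype, with an SD of 7.82% of the mean in KO and 7.35% in WT skin. Knockout mice 2, 3 and 4 had 104, 117 and 101 CPM, and WT mice 5, 6, 7 and 8 had 170.4, 179, 165 and 149.9 CPM. The gap between the groups was narrow in fold but clear of the spread inside them. The log2 fold change was -0.63 (SE 0.23, chromosome 7, 34818718 to 34821353, plus strand), and -0.61 without KO mouse 2. An opposite-strand gene model over its exons, Gm45091, had 0 counts. Sorted by level, the 7 libraries stood in the same order for Pparg and Cebpa. Pparg had 0.351, 0.393 and 0.259 tags per Cebpa tag in KO mice 2, 3 and 4, and 0.517, 0.520, 0.513 and 0.405 in WT mice 5, 6, 7 and 8.

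Gpam, the mitochondrial glycerol 3-phosphate acyltransferase of the first step, was at 105, 94.7 and 153 CPM in KO mice 2, 3 and 4. It was at 66.6, 84.6, 59.4 and 155 CPM in WT mice 5, 6, 7 and 8. WT mouse 8 lay above all KO mice, and the other 3 WT mice lay below them (log2 fold change 0.36, SE 0.35; chromosome 19, 55055700 to 55115670, minus strand). The value was 0.74 without WT mouse 8, 0.12 without KO mouse 4, 0.20 without WT mouse 7 and 0.24 without WT mouse 5.

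Lpin1, the phosphatidic acid phosphatase, was at 153, 186 and 62.2 CPM in KO mice 2, 3 and 4, and at 95.9, 172, 115 and 173 CPM in WT mice 5, 6, 7 and 8. Its highest and its lowest library were both KO mice (log2 fold change -0.05, SE 0.36; chromosome 12, 16585670 to 16696967, minus strand). The value was -0.36 with KO mouse 3 left out and 0.28 with KO mouse 4 left out, so its sign changed with the mice included.

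Agpat2, whose loss causes generalised lipodystrophy in humans and mice, was at 17.5, 45.4 and 23.8 CPM in KO mice 2, 3 and 4. It was at 55.7, 84.4, 0 and 37.0 CPM in WT mice 5, 6, 7 and 8. Wild-type mouse 7 had 0 counts, which allows a level of up to 0.368 CPM (3 counts, counting error only), beside 299 to 750 counts in the other WT libraries. The log2 fold change was -0.62 (SE 1.10, chromosome 2, 26483069 to 26494429, minus strand). It was -1.03 without WT mouse 7, -1.10 without KO mouse 3, -0.36 without KO mouse 2 and -0.10 without WT mouse 6, and limma-voom gave 1.22, so Agpat2 has no settled direction. Exons of Agpat2 overlap those of Egfl7, an endothelial gene on the opposite strand that had 2755 counts over all libraries, against 2287 for Agpat2. Egfl7 had 278, 457 and 402 counts in KO mice 2, 3 and 4, and 336, 259, 464 and 559 counts in WT mice 5, 6, 7 and 8. The sources used here do not say whether counting used strand, so reads of the pair may not be separated and the Agpat2 values are uncertain.

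Pck1, which feeds the glycerol backbone, was at 59.8, 93.4 and 23.1 CPM in KO mice 2, 3 and 4, and at 113, 86.8, 69.3 and 44.2 CPM in WT mice 5, 6, 7 and 8. Its spread inside a genotype, an SD of 59.8% of the mean in KO and 36.9% in WT skin, exceeded the difference between them (log2 fold change -0.41, SE 0.46; chromosome 2, 172994841 to 173001066, plus strand). The value was -0.92 without KO mouse 3 and -0.04 without KO mouse 4.

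Slc2a4 was at 60.3, 119 and 102 CPM in KO mice 2, 3 and 4. It was at 85.8, 43.1, 129 and 89.0 CPM in WT mice 5, 6, 7 and 8. Wild-type mice 6 and 7 held the lowest and the highest value, and the KO mice lay between them (log2 fold change 0.11, SE 0.38, and -0.12 without WT mouse 6; chromosome 11, 69833365 to 69839014, minus strand).

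By WT mean the order was Dgat2 (1063 CPM), Cebpa (166), Lpin1 (139), Gpam (91.4), Slc2a4 (86.6), Pparg (81.5), Pck1 (78.3), Agpat2 (44.3) and Dgat1 (35.6). The step from Dgat2 to Cebpa was clear, with Dgat2 higher in 3 of 3 KO and 4 of 4 WT mice and no overlap of the WT ranges. All 7 other neighbouring pairs overlapped in their WT ranges. Pparg, above Pck1 in 3 of 4 WT mice, was above it in 1 of 3 KO mice, and Agpat2, above Dgat1 in 3 of 4 WT mice, was above it in 0 of 3 KO mice.

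Fat cell transcripts were read from 17 markers, all tested and none at 0 throughout the KO libraries. Their summed level was 3747 to 6358 CPM in KO and 9309 to 15448 CPM in WT skin. All 17 had a log2 fold change below 0, against 50.5% of all genes tested, with a median of -1.42 against -0.01 for all genes. edgeR called 0 of them (0.0233% of all genes tested), and 12 had an unadjusted p under 0.05 (4.31% of all genes). DESeq2 called 12 (0.954% of all genes) and limma-voom 7 (0.171%). The markers were listed with earlier results of these data known, so nothing is read from these counts. Cd36, a fatty acid carrier, averaged 157 ± 27.0 CPM in KO and 415 ± 61.7 CPM in WT skin. Adipoq averaged 300.4 ± 53.8 CPM in KO and 833 ± 193.6 CPM in WT skin, and Lpl, the lipase that releases fatty acids from blood lipoproteins, 1179 ± 143 CPM in KO and 3154 ± 877.6 CPM in WT skin. Plin1, the coat of the fat cell's lipid droplet, averaged 113 ± 41.5 CPM in KO and 326 ± 86.1 CPM in WT skin (SD, n = 3 and 4). In bulk skin, fewer fat cells and less fat cell RNA per cell cannot be told apart.

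Set against the mean log2 level of these markers in the same library, Dgat2 overlapped between the groups: it stood 1.81 ± 0.27 above the markers in KO (SD, n = 3) and 1.80 ± 0.18 above them in WT skin (SD, n = 4), a difference of 0.01 on the log2 scale. Pparg stood 1.60 ± 0.34 below the markers in KO and 1.90 ± 0.43 below them in WT skin, with overlap. For Cebpa the KO minus WT difference relative to the markers was 0.86, with overlap. Dgat1, Gpam and Lpin1 stood higher against the markers in every KO than in every WT mouse, by 1.68, 1.92 and 1.34 on the log2 scale. The same held for 39.3% of all tested genes other than the markers, which is the background for these 3. Slc2a4 (1.64), Pck1 (0.94) and Agpat2 (2.40) overlapped on this scale. The Agpat2 difference rests on WT mouse 7, which had no Agpat2 counts, and was 0.57 without that mouse.

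**Figure D2:**
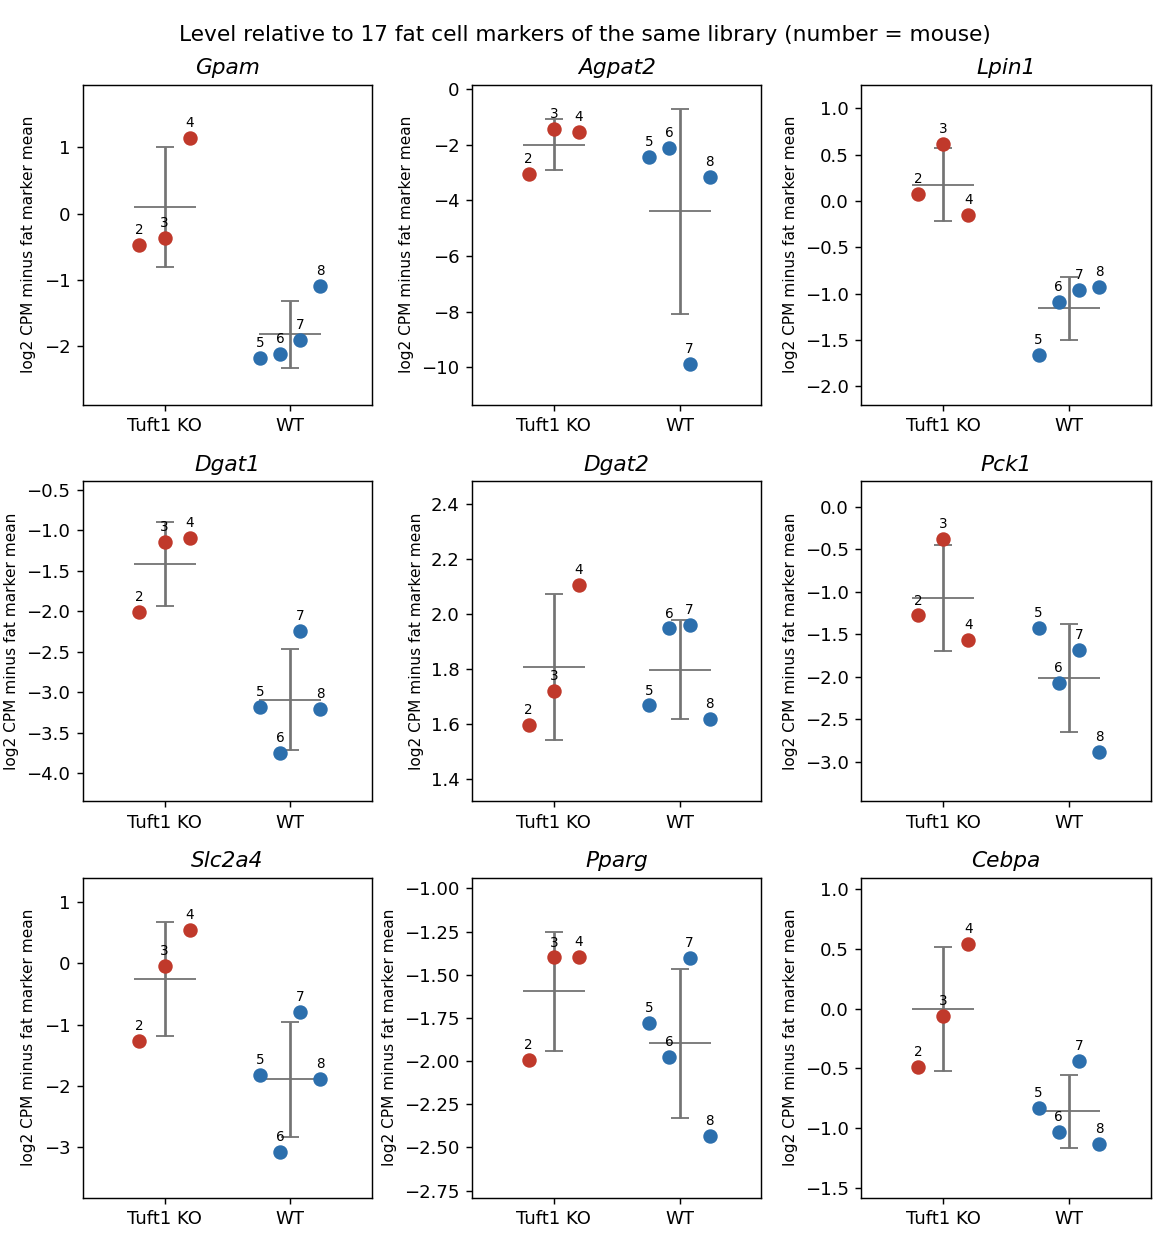
Log2 CPM of each gene minus the mean log2 CPM of 17 fat cell markers in the same library (vertical axis, log2 units, scaled per panel), in Tuft1 KO (red) and WT (blue) skin. Points are libraries with the mouse number, bars the mean ± SD (n = 3 and 4). Dgat2 lies between 1.59 and 2.10 in KO and between 1.62 and 1.96 in WT skin.

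Across the 7 libraries the level of Dgat2 followed the fat cell markers with Pearson's r of 0.97, and 0.87 after the mean of each genotype was subtracted. For Pparg the values were 0.90 and 0.47, for Cebpa 0.90 and 0.30, and for Slc2a4 -0.41 and -0.64. For Lpin1 they were 0.49 and 0.83, for Pck1 0.58 and 0.59, and for Agpat2 0.07 and 0.52. Gpam had -0.41 and -0.04, and Dgat1 -0.32 and -0.10. After centring, Lpin1, Pck1 and Agpat2 thus followed the markers more closely than Pparg and Cebpa did. These describe 7 libraries that share the genotype difference, and no p is attached. Pck1 followed Pparg inside the genotypes (r of 0.72 over 7 libraries and 0.95 after centring), and Dgat2 and Slc2a4 ran opposite to each other (-0.41 and -0.82).

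**Figure D3:**
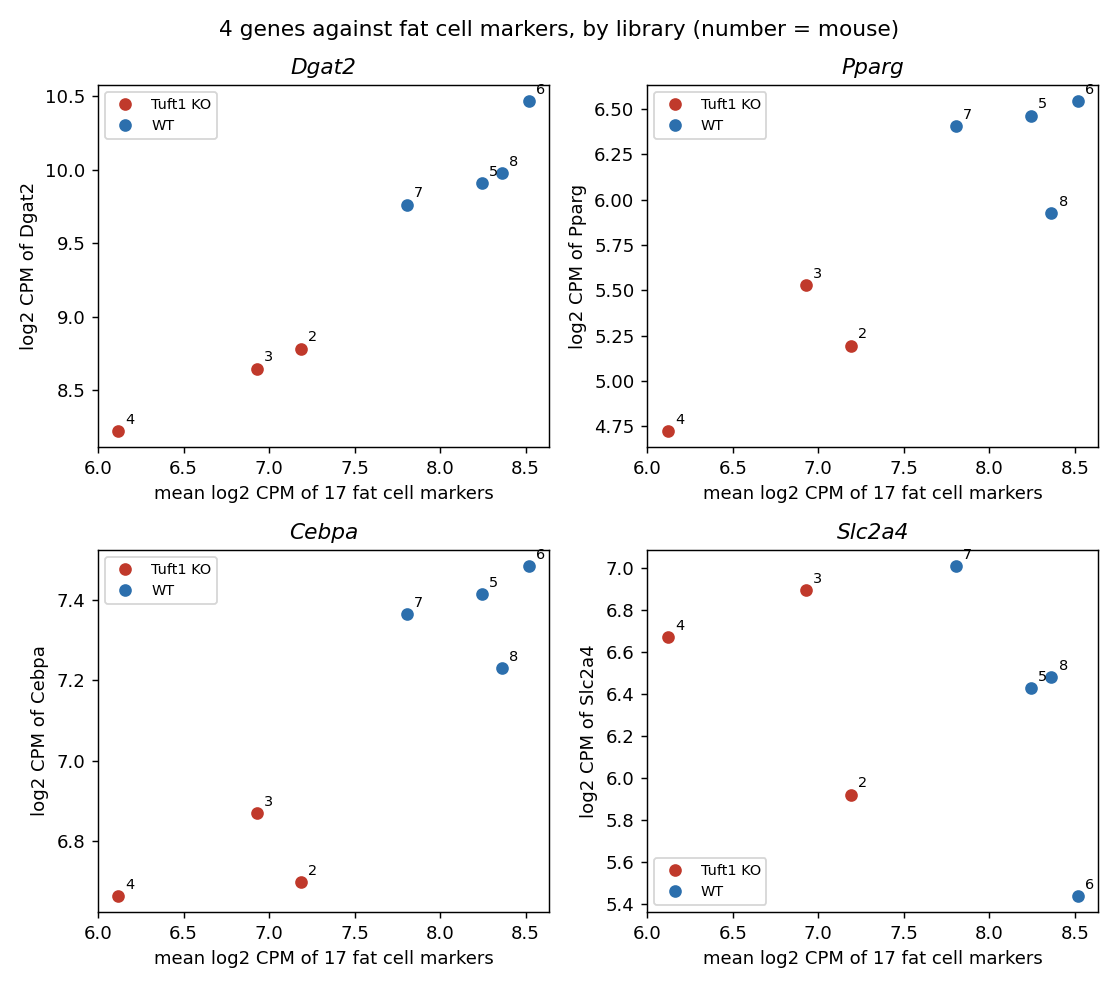
Log2 CPM of Dgat2, Pparg, Cebpa and Slc2a4 (vertical axes) against the mean log2 CPM of 17 fat cell markers (horizontal axes), 1 point per library with its mouse number, Tuft1 KO in red and WT in blue. Knockout libraries have marker means of 6.12 to 7.19 and WT libraries 7.80 to 8.52. Dgat2 climbs with the markers inside both genotypes, and Slc2a4 does not.

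By the likeness of their pattern, the genes nearest to the mean of the 9 standardised log2 levels were Pdcd4, a translation inhibitor (Pearson's r of 0.996 over 7 libraries, and 0.995 after the mean of each genotype was subtracted, here called centred), Wfdc1 (0.978, 0.973 centred), Yipf4 (0.971, 0.954 centred) and Mlxip, a glucose-sensing transcription factor (0.965, 0.957 centred), the highest of 10014 genes. Ablim3, Galnt7, Klhl7 and Tspyl4 followed, at 0.965, 0.964, 0.964 and 0.963. That mean is a blend of unlike patterns. For single genes, in a comparison added after the values were seen, Dgat2 was nearest to Mmd (0.989, 0.896 centred), Adipoq (0.981, 0.835 centred), Hp (0.976, 0.905 centred) and Fabp4 (0.975, 0.879 centred). Adipoq encodes adiponectin and Fabp4 the fat cell fatty acid carrier. Pparg and Cebpa were near to each other (0.977, 0.915 centred), but neither was the nearest gene of the other. Pparg was nearest to Cd59a (0.978, 0.874 centred) and Cebpa to Npr3 (0.979, 0.746 centred). Agpat2 was nearest to Neil1 (0.993), Lpin1 to Lsm12 (0.976), Pck1 to Usp38 (0.971) and Slc2a4 to Tdrd3 (0.988). The Agpat2 value rests largely on WT mouse 7, where Agpat2 had 0 counts. Dgat1 was nearest to Casq1, a calcium store protein of skeletal muscle (0.981, 0.982 centred), but its r with the mean of the 12 skeletal muscle markers was 0.16 (-0.02 centred). Gpam was nearest to Mylpf, a myosin light chain of fast muscle (0.962, 0.957 centred), and its r with those 12 markers, of which Mylpf is 1, was 0.61 (0.49 centred).

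The wider pathway was read from 6 lists of 100 other genes, 90 of them tested. edgeR called 0 in either direction, and 6 had an unadjusted p under 0.05, where 4.31% of all genes tested did. DESeq2, limma-voom and the fit without a filter called 1 each, where they called 0.954%, 0.171% and 0.397% of all genes. Of the 90, 54 had a log2 fold change below 0, with a median of -0.19. In 8 genes all KO mice lay below all WT mice, and in 2 above, where 3.45% and 3.44% of all genes did so.

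Among 9 tested genes of glycerol 3-phosphate supply 5 were below 0 (median -0.62), with 0 called. The median was -0.24 without KO mouse 3, -0.34 without WT mouse 5 and -0.21 by limma-voom. Gpd1, which makes glycerol 3-phosphate from a glycolytic intermediate, was at 145, 167 and 99.2 CPM in KO mice 2, 3 and 4, against 178, 197, 247 and 359 CPM in WT mice 5, 6, 7 and 8, with no overlap (log2 fold change -0.84, SE 0.29). Aqp7, the glycerol channel of fat cells, was at 4.08 ± 3.07 CPM in KO and 18.6 ± 8.61 CPM in WT skin (SD, n = 3 and 4), again with no overlap (-2.19, SE 1.21). Pdk4, which spares pyruvate, overlapped, at 87.8 ± 81.1 CPM in KO and 174 ± 81.2 CPM in WT skin.

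Of 11 tested acyltransferases and lipins beside the 9 genes, 8 were below 0 (median -0.20), with 0 called. The median was -0.06 without WT mouse 5, -0.41 without KO mouse 3 and -0.48 without KO mouse 4. Gpat4, the sister of Gpam in the endoplasmic reticulum, was at 86.2 ± 10.8 CPM in KO and 93.5 ± 11.9 CPM in WT skin (SD, n = 3 and 4). Gpat3, the form induced in fat cell formation, was at 10.9 ± 6.05 CPM in KO and 23.3 ± 5.61 CPM in WT skin. Agpat3 was at 39.7 ± 13.8 CPM in KO and 66.8 ± 18.0 CPM in WT skin, and Agpat5 at 46.0 ± 15.03 CPM in KO and 77.3 ± 43.2 CPM in WT skin. Gpat3 alone of these did not overlap. Mogat1, which makes diacylglycerol from monoacylglycerol, had 0 counts in the 3 KO libraries, and 69, 36, 46 and 0 counts in WT mice 5, 6, 7 and 8. For fatty acid activation, 3 of 7 genes were below 0 (median 0.12), with 0 called. The median was -0.16 without KO mouse 4, -0.01 without KO mouse 3 and 0.06 without WT mouse 5. Acsl1, the main acyl-CoA synthetase of fat cells, was at 230.0 ± 56.1 CPM in KO and 350.4 ± 79.7 CPM in WT skin, without overlap, while Acsl4 (70.9 ± 39.9 CPM in KO, 50.2 ± 9.17 CPM in WT skin) and Slc27a1 (21.1 ± 20.5 CPM in KO, 51.2 ± 25.9 CPM in WT skin) overlapped. Acsl5 was at 211 to 307 CPM in KO and 209.954 to 273 CPM in WT skin.

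Of 25 other adipogenic regulators 16 were below 0 (median -0.20, and -0.01 without KO mouse 2), with 0 called and 0 at an unadjusted p under 0.05. Ebf1, an early factor of the lineage, was at 203, 191 and 207 CPM in KO mice 2, 3 and 4, against 333, 215, 317 and 242 CPM in WT mice 5, 6, 7 and 8, with no overlap (log2 fold change -0.47, SE 0.23). Tle3, a coregulator of Pparg, was at 38.4 ± 13.4 CPM in KO and 62.7 ± 5.03 CPM in WT skin, and Ppard at 21.4 ± 16.3 CPM in KO and 55.0 ± 21.8 CPM in WT skin. Cebpb, which acts before Cebpa, was at 109 ± 48.9 CPM in KO and 111 ± 28.7 CPM in WT skin. Of 17 genes that hold fat cell formation back, 8 were below 0 (median 0.02), with 0 called. Leaving out single mice gave medians on both sides of 0, from -0.13 to 0.13. Sox9, also a factor of hair follicle stem cells, was at 381, 378 and 741 CPM in KO mice 2, 3 and 4, against 286, 153, 159 and 256 CPM in WT mice 5, 6, 7 and 8 (log2 fold change 1.23, SE 0.30). It was the pathway gene called by DESeq2, by limma-voom and without a filter. Klf2 (67.3 ± 7.69 CPM in KO, 112 ± 47.1 CPM in WT skin) and Id1 (65.9 ± 36.6 CPM in KO, 98.2 ± 37.5 CPM in WT skin) overlapped.

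Of 21 tested genes of insulin response and glucose entry 14 were below 0 (median -0.30, and -0.19 without WT mouse 7), with 0 called. Trarg1, a partner of GLUT4 traffic in fat cells, was at 232, 171 and 107 CPM in KO mice 2, 3 and 4, against 194, 352, 461 and 349 CPM in WT mice 5, 6, 7 and 8 (log2 fold change -0.997, SE 0.32). Knockout mouse 2 lay above WT mouse 5. Irs2, an insulin receptor substrate, was at 15.8 ± 13.5 CPM in KO and 44.0 ± 22.4 CPM in WT skin. The insulin receptor gene Insr was at 24.5 ± 10.4 CPM in KO and 26.4 ± 7.01 CPM in WT skin.

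**Figure D4:**
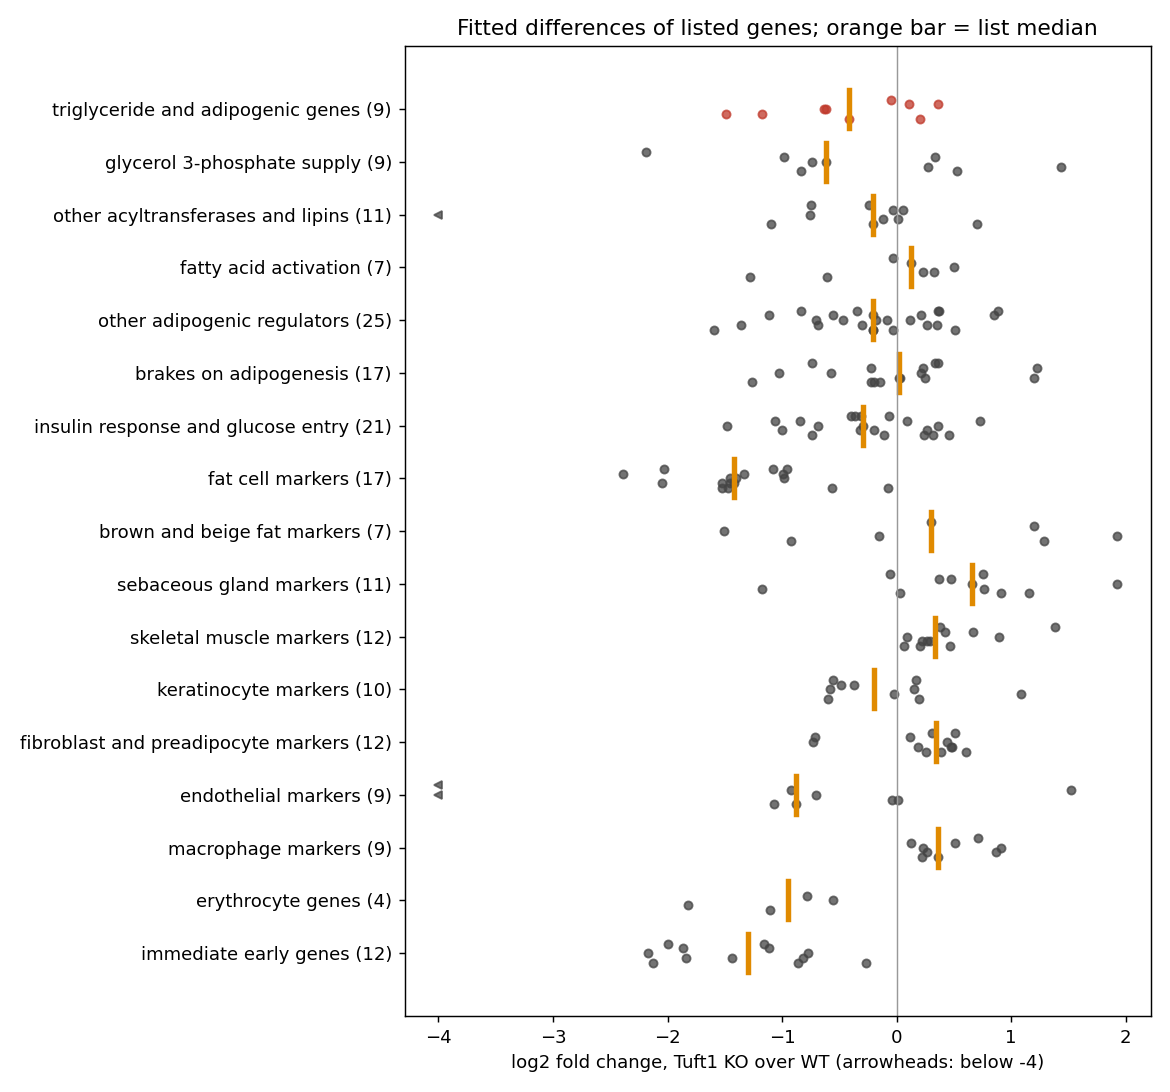
Fitted log2 fold change of Tuft1 KO over WT (horizontal axis) for each tested gene of the lists named at the left, with the number tested. Points are genes, orange bars the list medians, and arrowheads genes at 0 counts in the KO libraries whose fitted value lies below -4. The 9 triglyceride and adipogenic genes (red) run from -1.49 to 0.36, the fat cell markers have a median of -1.42 and the sebaceous gland markers one of 0.66.

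Markers of other cells that express some of the 9 genes had other values. Of 11 tested sebaceous gland markers, 9 were above 0 (median 0.66, and 0.40 without WT mouse 6), and 1 of the 2 below was Pparg itself. Their summed level was 1254 to 1419 CPM in KO and 797 to 1050 CPM in WT skin. Awat2 and Rdh9 had too few counts to be tested. Krt79, a keratin of the gland's duct, was at 269 ± 43.9 CPM in KO and 120.3 ± 31.9 CPM in WT skin (SD, n = 3 and 4). All 12 tested skeletal muscle markers were above 0 (median 0.33), with a sum of 20597 to 29736 CPM in KO and 18724 to 25817 CPM in WT skin. Slc2a4 correlated with the muscle markers at r of 0.39 (0.38 centred) and with the sebaceous markers at 0.82 (0.93 centred) over 7 libraries. Their part in the levels of Slc2a4, Lpin1, Gpam and Dgat1 was not tested.

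Immediate early genes, which respond to tissue handling, summed to 1383 to 1597 CPM in KO and 1656 to 5841 CPM in WT skin, with 12 of 12 below 0 (median -1.30). Wild-type mouse 8 was the lowest of its group in these genes, and also in Pparg and Cebpa. Over 7 libraries their mean log2 level correlated with Pparg at r of 0.83 (0.47 centred), with Cebpa at 0.83 (0.43 centred), with Dgat2 at 0.70 (-0.23 centred) and with Gpam at -0.82 (-0.85 centred). For Pck1 r was 0.54 (0.42 centred), and for the other 4 genes it ran from -0.37 for Agpat2 to -0.04 for Slc2a4. Of 12 fibroblast and preadipocyte markers 10 were above 0 (median 0.35), summing to 11806 to 31240 CPM in KO and 11350 to 19124 CPM in WT skin. The highest sum was that of KO mouse 2, without which the median was -0.13, and it was 0.69 without KO mouse 4. Of 9 endothelial markers 7 were below 0 (median -0.88, and -0.50 without WT mouse 8), with 2 at 0 in all KO libraries. All 9 macrophage markers were above 0 (median 0.36), but their median was -0.13 without KO mouse 2 and 0.69 without KO mouse 3. Of 10 keratinocyte markers 6 were below 0 (median -0.19, and -0.11 without WT mouse 5), as were all 4 tested erythrocyte genes (median -0.95, and -0.56 without KO mouse 3). Alb was the only one of 6 hepatocyte markers tested. Their part in the levels of the 9 genes was not tested.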

How the data were processed

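RNA of powdered frozen skin was made into 3′ end libraries (QuantSeq), per the labels' protocols. Per gene, the authors deposited unnormalised counts as whole numbers. Per the submitters' processing notes, edgeR 3.36.0, Subread 2.0.3 with featureCounts, GATK 4.2.4.0 and STAR were used, with mm39 as build, in roles and an order not stated. A second deposited table holds log2 values for 12954 genes, and all 90678 were recovered from the counts as TMM-scaled log2 CPM with a prior count of 2, within 1e-09. It was used only for this check.

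Counts of all 7 libraries (7009237 to 9256459) were fitted in edgeR 4.0.16 under R 4.3.3. The expression filter (minimum count 10) left 12888 of 19128 genes with any count. After TMM scaling, the quasi-likelihood F test compared KO with WT, with Benjamini-Hochberg adjustment over all genes tested and a threshold of 0.05. A log2 fold change is KO over WT, and its SE comes from the F statistic. The procedure was tested on simulated data. DESeq2 1.42.0 and limma-voom (limma 3.58.1) were among the alternatives. Each library is 1 mouse, so p-values measure the spread between these mice.

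The 9 genes and all lists were chosen with earlier results of these data known. From each list the genes named are those called or the 3 with the smallest p, and lists of other cell types are given mainly as counts. Of the genes so named, 1 is not reported here. Gpat3, Gpat4, Acsl5, Cebpb, Insr, Plin1 and Kcnk3 were named after their values were seen, as were pairs of the 9 genes. Lists overlap in Pparg and Elovl3. Intervals and floors cover counting error only.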

Additional observations from a re-analysis of the deposited data

Results flagged for a closer look

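Over 56 genes, the 9 described here and those named from each list, the 4 WT libraries were searched for 1 that lay far from the rest. It was found for 3 of the 56 genes. Chance alone would set apart about 1 in 20 groups of 4 independent values from a normal distribution. Log2 levels with a floor at 0 counts, from genes of the same libraries, need not follow this. The 3 of 56 is close to that share, and nothing is read from it. Agpat2 was at a log2 CPM of -2.07 (0 counts) in WT mouse 7, against 5.22 to 6.40 in WT mice 5, 6 and 8. Mogat1 was at -2.07 (0 counts) in WT mouse 8, and WT mice 5, 6 and 7 lay at 2.10 to 2.94. Tek, an endothelial receptor, was at 1.30 in WT mouse 8, and WT mice 5, 6 and 7 lay at 2.96 to 3.20.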

How the results depend on the processing

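No paired analysis was possible because the mouse numbers of the 2 genotypes differ. Against 3 genes called by edgeR, 76 were called without a filter on low counts, 123 by DESeq2 and 22 by limma-voom, and 0 to 1 with any of the 7 mice left out (0 without WT mouse 5, 6 or 7, and 1 without each of the others). Of the 192 other listed genes tested, 0 were called by edgeR, against 24 without a filter, 18 by DESeq2 and 9 by limma-voom. The shares of all genes called were 0.0233%, 0.397%, 0.954% and 0.171%, in the same order. Nothing is read from these counts, since the lists were chosen with earlier results known. DESeq2 size factors, or TMM factors made without the fat cell, muscle and keratin genes and the 9 genes, left 3 genes called.

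Of the 108 values of the 9 genes under 12 alternatives, 0 moved by more than the spread between mice. Leaving out a mouse can hardly shift a fold change by that much, so nothing is read from this count. The sign stayed the same in all 12 for 5 genes. The exceptions were Dgat1 (-0.06 to 0.37), Lpin1 (-0.36 to 0.28), Slc2a4 (-0.12 to 0.37) and Agpat2 (-1.10 to 1.22, the highest by limma-voom). The cause was not tested. Dgat2 ran from -1.61 to -1.33, Pparg from -1.38 to -0.99 and Cebpa from -0.70 to -0.60. With Adipoq or Plin1 alone in place of the 17 markers, the median difference of the 9 genes relative to fat cell markers was 1.30 and 1.39, against 1.34. With single mice left out, it ran from 1.05 without WT mouse 7 to 1.41 without WT mouse 8. For Cebpa this difference was 0.86 in the main fit. It was 0.58 without KO mouse 4, 1.00 without WT mouse 7 and 1.10 without KO mouse 2. These shifts exceeded the spread between mice of Cebpa's own log2 CPM. They stayed inside the spread of its level relative to the markers (SD 0.52 in KO, 0.31 in WT skin).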

Other observations

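Markers of brown and beige fat were split. Of 7 tested, 4 had a log2 fold change above 0 and 3 below, with a median of 0.30. The median was 0.06 without WT mouse 5, 0.11 without WT mouse 6 and 0.57 without KO mouse 4. edgeR called 0 of the 7, and 3 had an unadjusted p under 0.05, where 4.31% of all genes tested did. Ucp1, the heat-producing protein of brown fat, had too few counts to be tested. Cidea, a lipid droplet protein, was at 47.0, 170.04 and 142 CPM in KO mice 2, 3 and 4, and at 51.0, 33.4, 41.0 and 71.0 CPM in WT mice 5, 6, 7 and 8. Elovl3, which lengthens fatty acids, was at 31.6, 90.7 and 110.2 CPM in KO mice 2, 3 and 4, and at 18.8, 2.36, 28.4 and 32.3 CPM in WT mice 5, 6, 7 and 8. Both genes overlapped between the genotypes through KO mouse 2, and both are also active in sebaceous glands. Dio2, which activates thyroid hormone, was at 21.2 ± 1.96 CPM in KO and 60.3 ± 54.5 CPM in WT skin (SD, n = 3 and 4; log2 fold change -1.51), and Kcnk3, a potassium channel, at 11.9 ± 5.97 CPM in KO and 22.4 ± 15.5 CPM in WT skin (-0.92).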
